A study of Mus musculus with 4 samples.

Results

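LIN28, IGF2BP and HMGA genes form a set of RNA-binding and chromatin proteins that mark fetal blood formation. They were read out here in sorted mouse bone marrow B cells. The set was chosen by symbol and holds 7 genes, Lin28a, Lin28b, Igf2bp1, Igf2bp2, Igf2bp3, Hmga1 and Hmga2, and all 7 had a row among the 24411 gene symbols measured. The cells were B220-positive B cells sorted from the marrow of tibiae and femurs. The RNA came from 2 libraries labelled as Arid5b overexpression and from 2 wildtype libraries; strain, age, and the construct or promoter behind the overexpression are not given in the sources used here. Nothing in the labels says whether the libraries of a group came from separate animals, so p-values measure the spread between these libraries only.

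In mouse, Lin28b is known as a switch of fetal lymphopoiesis: it is high in fetal liver progenitors, low in adult marrow, and its forced expression gives adult cells fetal B cell output. LIN28 proteins block the maturation of let-7 microRNAs, and let-7 in turn represses Lin28a, Lin28b, the Igf2bp genes and the Hmga genes through sites in their 3′ untranslated regions. Igf2bp1, Igf2bp2 and Igf2bp3 encode proteins that bind mRNAs and steer their stability and translation, and Hmga1 and Hmga2 encode small chromatin proteins that bind AT-rich DNA. Hmga2 is also known as an activator of Igf2bp2 transcription in mouse embryonic muscle.

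The let-7 site is a sequence that these 7 genes share. The genes were chosen by symbol, but they were already known as let-7 targets. Matches in them are therefore background and no result of these data. The mature let-7 microRNAs below are from RefSeq (GRCm38.p6), with the seed, bases 2 to 8, in capitals; 10 let-7 loci with a mature sequence matched rows of the tables, and all 10 carry the same seed.
let-7a: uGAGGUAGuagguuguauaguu
let-7g: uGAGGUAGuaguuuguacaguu
let-7e: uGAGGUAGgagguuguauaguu
Each of the 7 genes held at least 1 match to that seed in its 3′ untranslated region. The first match of each gene is printed, from GENCODE transcripts on GRCm38 with the 7 bases CTACCTC in capitals, read 5′ to 3′ on the strand of the gene.
Lin28a: tgcacagcctgttgaaCTACCTCa
Lin28b: cacccgggcgggaagtCTACCTCa
Igf2bp1: tgctgtgcgaagtaaaCTACCTCa
Igf2bp2: aacacacaaataaaagCTACCTCa
Igf2bp3: gtgcatttttactcaaCTACCTCa
Hmga1: ctcctctgttcacaaaCTACCTCt
Hmga2: cgccgacattcaatttCTACCTCa
These stretches lie at chr4:134005189-134005212 (Lin28a, minus strand), chr10:45381022-45381045 (Lin28b, minus), chr11:95961778-95961801 (Igf2bp1, minus), chr16:22059473-22059496 (Igf2bp2, minus), chr6:49086787-49086810 (Igf2bp3, minus), chr17:27563276-27563299 (Hmga1, plus) and chr10:120364224-120364247 (Hmga2, minus). All 7 are exonic. Only the gene's own strand was searched.

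The genes differed in how many matches they held. Lin28b, Igf2bp1 and Hmga2 held 4 each, Lin28a held 2, and Igf2bp2, Igf2bp3 and Hmga1 held 1 each. Among 3′ untranslated regions of 0.8 to 1.25 times the same length, 24.1% held at least 1 match for the length of Lin28b, 33.9% for Igf2bp1, 15.5% for Hmga2 and 14.5% for Lin28a. For the shorter regions of Igf2bp2, Igf2bp3 and Hmga1 that share was 11.5%, 12.8% and 8.01%. At least 4 matches were held by 0.252% of regions as long as that of Lin28b, 0.197% for Igf2bp1 and 0.0456% for Hmga2. Since known let-7 targets were searched, these shares describe the genes and test nothing. A match describes the letters only. It is no measure of let-7 binding in these cells.

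The libraries held 15281839 and 20356404 reads for overexpression-labelled libraries 1 and 2, against 20146878 and 14196665 reads for wildtype libraries 1 and 2. Arid5b, the gene named in the label, had 58127 and 2770 reads in overexpression-labelled libraries 1 and 2, against 2993 and 2465 reads in wildtype libraries 1 and 2. Library 2 therefore goes against its label, and each overexpression-labelled library was set alone against the wildtype pair as well as together with the other. The B lineage markers Cd79a, Cd79b, Ptprc, Ebf1, Pax5, Cd22 and Ms4a1 summed to 2820 and 5018 CPM (counts scaled to the library total) in overexpression-labelled libraries 1 and 2, against 4654 and 5198 CPM in wildtype libraries 1 and 2. They were not evenly present: Ms4a1, the CD20 antigen of mature B cells, had 149 and 12012 reads in overexpression-labelled libraries 1 and 2, against 8257 and 8108 reads in wildtype libraries 1 and 2, and Ptprc, whose B cell isoform carries the B220 epitope, had 5683 and 38260 reads, against 35704 and 27790 reads. Cd79b, Ebf1 and Pax5 were higher in overexpression-labelled library 1, at 400, 931 and 320 CPM. They stood at 172, 585 and 145 CPM in wildtype library 1 and at 165, 605 and 151 CPM in wildtype library 2. Cd79a and Cd22 were lower in overexpression-labelled library 1, at 590 and 196 CPM. They stood at 1255 and 316 CPM in wildtype library 1 and at 1391 and 358 CPM in wildtype library 2. Sums over markers of other cells and stages stood apart in single libraries. The pro-B and pre-B markers Igll1, Vpreb1, Rag1, Rag2, Il7r and Dntt summed to 3657 and 2.55 CPM in overexpression-labelled libraries 1 and 2, against 8.74 and 3.66 CPM in wildtype libraries 1 and 2. The neutrophil markers, 8 genes such as S100a8 and Ngp, summed to 127 and 1422 CPM, against 6.20 and 98.8 CPM. Their part in the results below was not tested, and in bulk samples fewer cells of a type and less RNA per cell cannot be told apart.

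**Figure D1:**
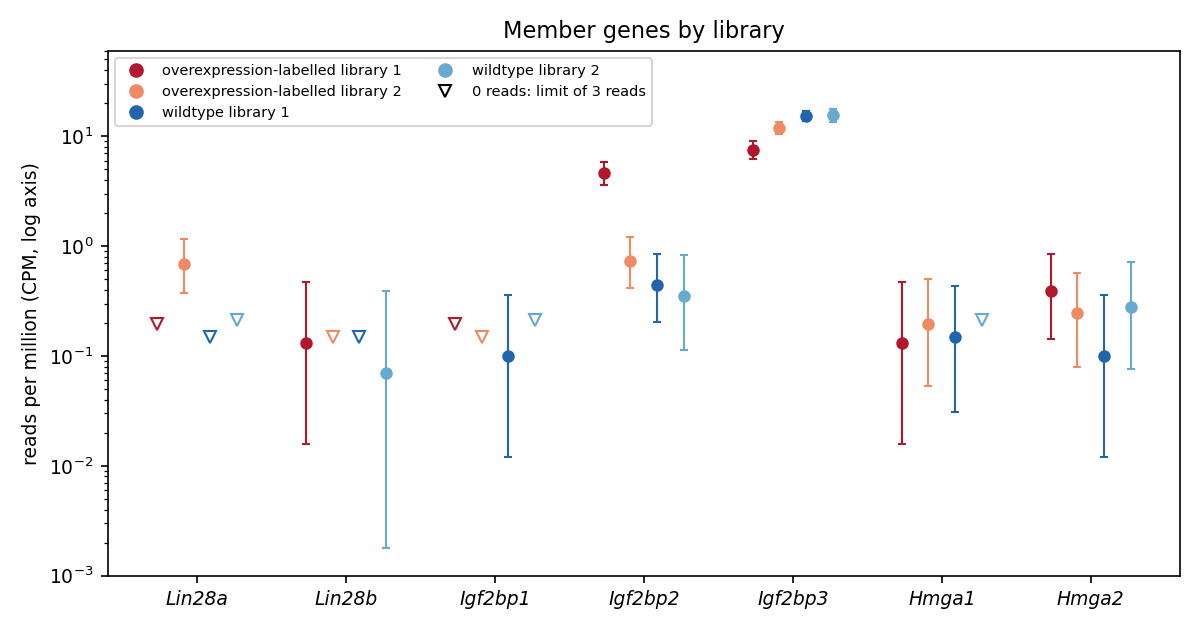
CPM (log axis) of the 7 genes in each library, overexpression-labelled libraries left of wildtype, with exact Poisson 95% intervals for counting error; open triangles mark 0 reads, drawn at the level that 3 reads would give. Only Igf2bp3 lies above 5 CPM in every library, and Igf2bp2 stands at 4.65 CPM in overexpression-labelled library 1 against at most 0.737 CPM in the other 3 libraries.

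Igf2bp3 and, in a single library, Igf2bp2 carried most reads of the 7 genes, while no LIN28 or HMGA gene had more than 14 reads in any library. The 7 genes together had 195 and 281 reads in overexpression-labelled libraries 1 and 2, against 324 and 231 reads in wildtype libraries 1 and 2. As a share of reads, not of levels per length, Igf2bp3 made up 58.5% and 86.5% of these reads in overexpression-labelled libraries 1 and 2, against 95.1% and 95.7% in wildtype libraries 1 and 2. All reads cited are counts recovered from the deposited log2 values, and intervals on them cover counting error only.

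Lin28a (chr4:134003330-134018841) encodes the LIN28 protein best known from embryonic stem cells. It had 0 and 14 reads in overexpression-labelled libraries 1 and 2, against 0 and 0 reads in wildtype libraries 1 and 2. All reads were in overexpression-labelled library 2, the library without raised Arid5b, at 0.688 CPM with a counting interval of 0.376 to 1.15. Set against a floor of 3 reads in each wildtype library, its normalised level there was 3.86-fold higher. That value leaves out the counting error of the 14 reads. It was not tested, since 1 library alone held 10 reads or more.

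Lin28b (chr10:45376620-45486395), the paralog tied to fetal lymphopoiesis, had 2 and 0 reads in overexpression-labelled libraries 1 and 2, against 0 and 1 reads in wildtype libraries 1 and 2. That is 3 reads in all 4 libraries. Where a library held 0 reads, the depth allows a level of up to 0.196 and 0.147 CPM in overexpression-labelled libraries 1 and 2, against 0.149 and 0.211 CPM in wildtype libraries 1 and 2; a difference below these levels was not detectable.

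Igf2bp1 (chr11:95957163-96005940), the family member that guards Myc mRNA from decay, had 0 and 0 reads in overexpression-labelled libraries 1 and 2, against 2 and 0 reads in wildtype libraries 1 and 2. These reads are too few for any comparison.

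Igf2bp2 (chr16:22059009-22163299), the member best known from metabolic tissues and muscle, was high in 1 library. It had 71 and 15 reads in overexpression-labelled libraries 1 and 2, against 9 and 5 reads in wildtype libraries 1 and 2. Scaled to depth this was 4.65 and 0.737 CPM, against 0.447 and 0.352 CPM. The groups did not overlap, but overexpression-labelled library 2 lay far nearer to the wildtype pair than to library 1. Of all 12617 genes tested, 42.6% had groups that did not overlap, 19.6% with both overexpression-labelled libraries higher and 23% with both lower.

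Igf2bp3 (chr6:49085223-49214957), the member known as a marker of fetal B progenitors in mouse, had 114 and 243 reads in overexpression-labelled libraries 1 and 2, against 308 and 221 reads in wildtype libraries 1 and 2. Scaled to depth it stood at 7.46 and 11.9 CPM, against 15.3 and 15.6 CPM. Both overexpression-labelled libraries were below both wildtype libraries, library 1 the lowest.

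The order of Igf2bp3 over Igf2bp2 was the same in every library, but the distance between them was not. In CPM per kilobase of exon, the level of Igf2bp3 was 0.914 and 1.46 in overexpression-labelled libraries 1 and 2, against 1.87 and 1.91 in wildtype libraries 1 and 2. On the same scale Igf2bp2 was at 0.628 and 0.0996, against 0.0604 and 0.0476. The ratio of Igf2bp3 to Igf2bp2 per kilobase was 1.46 in overexpression-labelled library 1, with a counting interval of 1.07 to 1.99. It was 14.7 in overexpression-labelled library 2 (8.74 to 26.7), against 31.0 (16.1 to 68.5) and 40.1 (16.9 to 125) in wildtype libraries 1 and 2. The 2 paralogs were nearest to each other in overexpression-labelled library 1, whose interval lies below those of the other 3 libraries.

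Hmga1 (chr17:27556497-27563674), a chromatin protein common in dividing cells, had 2 and 4 reads in overexpression-labelled libraries 1 and 2, against 3 and 0 reads in wildtype libraries 1 and 2. Its count is uncertain, because how the authors' counting treated reads that match more than 1 place in the genome is not given in the sources used here; its part in the low count was not tested.

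Hmga2 (chr10:120361275-120476469), known for self-renewal of fetal blood stem cells in mouse, had 6 and 5 reads in overexpression-labelled libraries 1 and 2, against 2 and 4 reads in wildtype libraries 1 and 2. The counting intervals of all 4 libraries overlap. A pseudogene of it, Hmga2-ps1, had 71 and 391 reads in overexpression-labelled libraries 1 and 2, against 335 and 185 reads in wildtype libraries 1 and 2. It has a row of its own, apart from Hmga2, and lies within the span of Sdccag8 in RefSeq, so unspliced reads of that gene cannot be told apart from its own.

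Of the 7 genes, Igf2bp2 and Igf2bp3 had enough reads to be tested, and neither passed between the 2 groups of 2. Igf2bp2 averaged 7.06 ± 1.06 on the deposited log2 scale in the overexpression-labelled libraries and 5.96 ± 0.0894 in the wildtype libraries (SD, n = 2 each). The difference was 1.10 (SE 0.653, 95% interval -0.65 to 2.84; limma-trend, Benjamini-Hochberg adjusted p = 0.726). Igf2bp3 averaged 8.71 ± 0.511 in the overexpression-labelled libraries and 9.39 ± 0.00428 in the wildtype libraries (SD, n = 2 each). Its difference was -0.68 (SE 0.428, 95% interval -1.83 to 0.46; limma-trend adjusted p = 0.726). In this comparison limma-trend called 0% of all genes, and 280 had an unadjusted p under 0.05. With limma-voom the number called was 0 too, and 186 genes had an unadjusted p under 0.05. An exact permutation test of 2 against 2 libraries cannot give a p below 0.333.

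In overexpression-labelled library 1 alone, the IGF2BP paralogs moved in opposite directions. Igf2bp2 entered the test only through the overexpression-labelled libraries, the 2 with 10 reads or more, where it is high, so its difference is best read as a description. It was higher by 1.85 than in the wildtype pair (SE 0.419, 95% interval 0.94 to 2.75; limma-trend adjusted p = 0.0019). On normalised reads the same difference was a ratio of 10.5, with a counting interval of 5.74 to 19.7, since the deposited scale understates changes of genes with few reads. Igf2bp3 fell by 1.04 (SE 0.266, 95% interval -1.62 to -0.47; limma-trend adjusted p = 0.00416), a ratio of 0.437 (0.353 to 0.536) on normalised reads. Called genes made up 61.2% of all genes in this comparison, 26.8% higher and 34.4% lower, so calls at both tested genes do not set them apart. The balance of calls depends on the scaling: 43.7% of called genes were higher, and 51.5% (3933 higher, 3708 lower) with library totals without Rn45s, the ribosomal RNA precursor. Without a filter on low reads neither gene passed (adjusted p = 0.0571 for each).

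In overexpression-labelled library 2 neither gene passed. Igf2bp2 differed from the wildtype pair by 0.35 (95% interval -0.64 to 1.34; limma-trend adjusted p = 0.755) and by a ratio of 1.86 (0.82 to 4.07) on normalised reads. Igf2bp3 differed by -0.32 (95% interval -0.86 to 0.21; limma-trend adjusted p = 0.565) and by a ratio of 0.782 (0.668 to 0.911). The last interval covers counting error only. In this comparison 1.66% of all genes were called, 0.769% higher and 0.888% lower. Whether the 2 overexpression-labelled libraries differ from each other in these genes was not tested, with 1 library on each side.

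**Figure D2:**
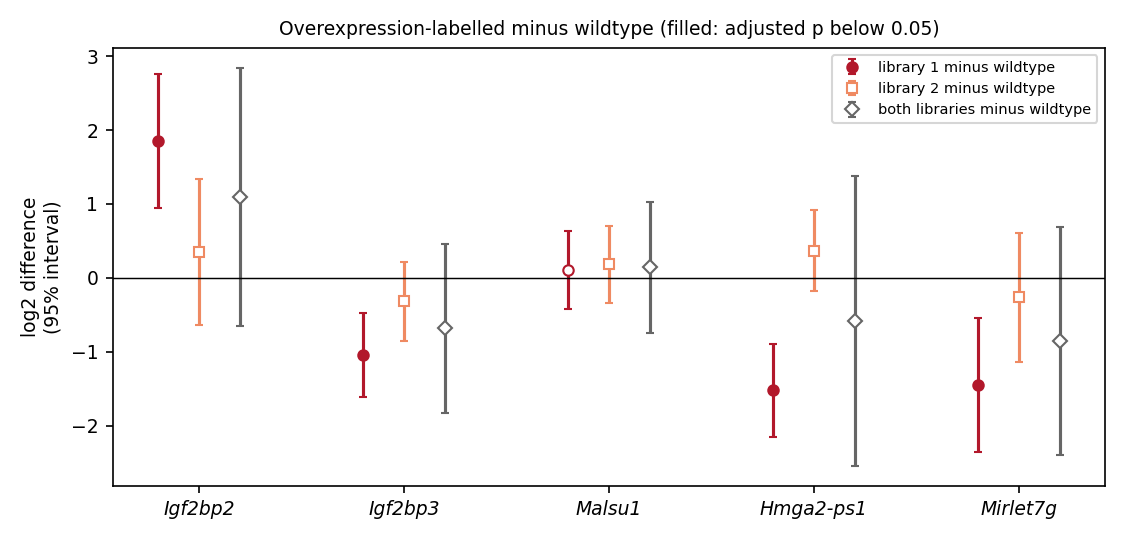
Difference in deposited log2 values, overexpression-labelled minus wildtype, with 95% limma-trend intervals, for library 1, library 2 and both together; filled symbols have an adjusted p below 0.05. In library 1 Igf2bp2 is at 1.85 and Igf2bp3 at -1.04, while Malsu1, which overlaps Igf2bp3, is at 0.11.

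The row of Igf2bp3 shares sequence with its neighbour. Malsu1, a gene for a factor of the mitochondrial ribosome, lies on the opposite strand, and 1529 of the 8159 exonic bases of Igf2bp3 also belong to Malsu1. Malsu1 had 290 and 365 reads in overexpression-labelled libraries 1 and 2, against 338 and 211 reads in wildtype libraries 1 and 2. It did not pass in either library: its difference was 0.11 in library 1 (limma-trend adjusted p = 0.714) and 0.18 in library 2 (limma-trend adjusted p = 0.758). Whether counting used the strand is not stated, so reads in the shared bases cannot be told apart. Igf2bp2 shares none of its 50-base windows with another annotated transcript.

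Genes whose profile over the 4 libraries was nearest to each tested gene were ranked by the root mean square difference of centred log2 values. For Igf2bp2 they were l7Rn6 (0.0235), Zfp946 (0.029) and Ppp2r5d (0.0291), and 358 genes lay within 0.2. For Igf2bp3 they were Sars (0.0108), Ino80d (0.017) and Btg1 (0.0201), and 1191 genes lay within 0.2. The many near profiles show how little 4 libraries single out.

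The let-7 hairpins themselves had few reads, fewest in overexpression-labelled library 1. Total RNA libraries of this kind read precursors and host transcripts at best, so these rows are no measure of mature let-7. The 11 let-7 rows summed to 4 and 46 reads in overexpression-labelled libraries 1 and 2, against 89 and 42 reads in wildtype libraries 1 and 2. Normalised to depth, the sum in library 1 was 0.0619 of that in the wildtype pair (counting interval 0.0166 to 0.162), and in library 2 it was 0.597 (0.417 to 0.842). Mirlet7g, the row with the most reads, had 3 and 30 reads in overexpression-labelled libraries 1 and 2, against 45 and 26 reads in wildtype libraries 1 and 2.

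Mirlet7g was the let-7 row with enough reads for the test. It fell by 1.45 in overexpression-labelled library 1 (SE 0.42, limma-trend adjusted p = 0.00912), and in library 2 its difference was -0.27 (limma-trend adjusted p = 0.791). The hairpin lies within Wdr82, a gene for a subunit of histone methyltransferase complexes. Wdr82 had 1253 and 1597 reads in overexpression-labelled libraries 1 and 2, against 1716 and 1369 reads in wildtype libraries 1 and 2, and its difference in library 1 was -0.29 (limma-trend adjusted p = 0.121). The clustered hairpins Mirlet7a-1, Mirlet7f-1 and Mirlet7d on chromosome 13 had 1 read together in overexpression-labelled library 1. Mirlet7a-2, Mirlet7b, Mirlet7c-1, Mirlet7c-2, Mirlet7e and Mirlet7i had 0 reads in all 4 libraries.

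**Figure D3:**
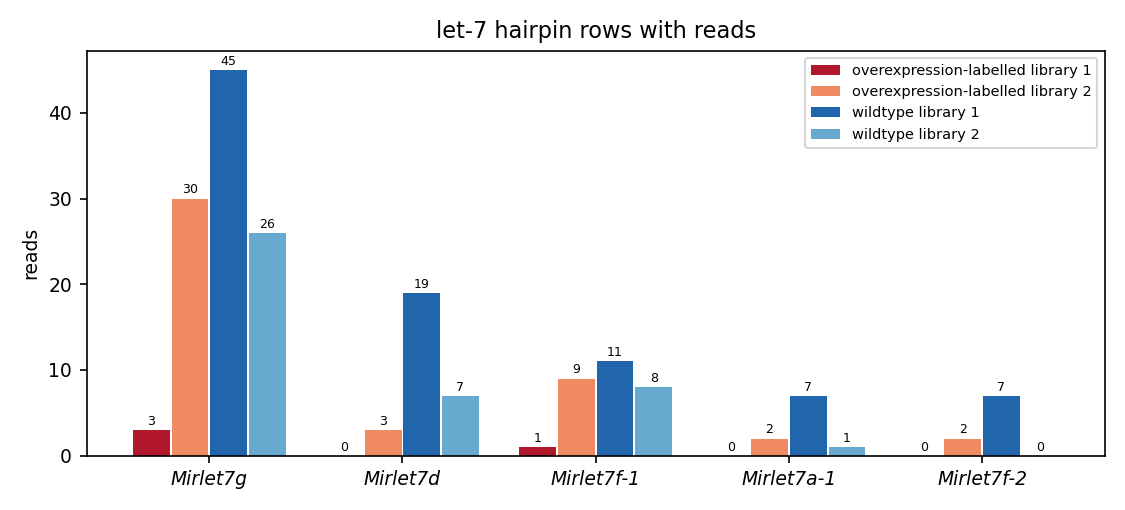
Reads in the 5 let-7 hairpin rows that had any, as bars starting at 0, with overexpression-labelled libraries left of wildtype and the read number above each bar. Overexpression-labelled library 1 has 3 reads in Mirlet7g and 1 in Mirlet7f-1, against 45 and 26 for Mirlet7g in wildtype libraries 1 and 2.

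Of 19 tested genes that make and remove let-7, 5 were higher and 8 lower in overexpression-labelled library 1. That is 26.3% and 42.1%, beside 26.8% and 34.4% of all genes, and the median difference of -0.13 stands beside -0.15 over all genes, so the counts are near the background. Prkra, a partner of Dicer, was higher by 2.53, with 127 and 38 reads in overexpression-labelled libraries 1 and 2, against 5 and 8 reads in wildtype libraries 1 and 2. Like Igf2bp2, Prkra entered the test only through the overexpression-labelled libraries, where it is high. Its difference and its call are best read as a description. Khsrp, which binds the let-7 loop and aids its cleavage, was higher by 1.61. The Argonaute genes Ago2 and Ago4 fell by 2.38 and 2.07, and Zc3h12a, an RNase that cuts microRNA loops, fell by 2.21. In library 2, 0 of the 19 were higher and 1 was lower, Ago2 (difference -0.65, limma-trend adjusted p = 0.0217), a call lost under 3 of 10 alternatives.

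The values of the core enzymes follow; these genes were picked for their roles after their values were seen, and no difference between steps was tested. Drosha and Dgcr8, which cut the primary transcript, were higher by 1.00 and 1.03 in overexpression-labelled library 1, and the exporter Xpo5 by 0.87. Dicer1, which cuts the exported hairpin, fell by 0.49. Zcchc11 and Zcchc6, the enzymes that LIN28 recruits to tag let-7 precursors with uridines, fell by 0.94 and 1.32. Dis3l2, which degrades the tagged precursors, differed by -0.13 and did not pass (limma-trend adjusted p = 0.619).

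Of 43 tested let-7 target genes other than the 7, 12 were higher and 21 lower in overexpression-labelled library 1, with a median difference of -0.56. That is 27.9% higher and 48.8% lower, beside 26.8% and 34.4% of all genes. Without a filter on low reads the excess of lower over higher calls among these targets did not remain. The balance of calls that turned with the scaling, as given above, was that over all genes. It is no result for these targets. Ccnd2, a D-type cyclin, fell by 5.41, with 21 and 1623 reads in overexpression-labelled libraries 1 and 2, against 2059 and 1599 reads in wildtype libraries 1 and 2. Rrm2, a subunit of ribonucleotide reductase, was higher by 5.36, with 5039 and 187 reads in overexpression-labelled libraries 1 and 2, against 137 and 70 reads in wildtype libraries 1 and 2. Dna2, a DNA repair nuclease, was higher by 3.90, and the Polycomb gene Cbx2 and the heterochromatin gene Cbx5 by 3.57 and 3.36. In library 2 Dusp1, a phosphatase of MAP kinases, was higher by 0.74 (limma-trend adjusted p = 0.038) and Cpm, a carboxypeptidase, lower by 0.91 (limma-trend adjusted p = 0.0137), and no other target passed; both are named because they passed. The call of Dusp1 was lost under 5 of 10 alternatives and that of Cpm under 2. In library 1 both genes were higher, by 0.52 and 0.99.

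**Figure D4:**
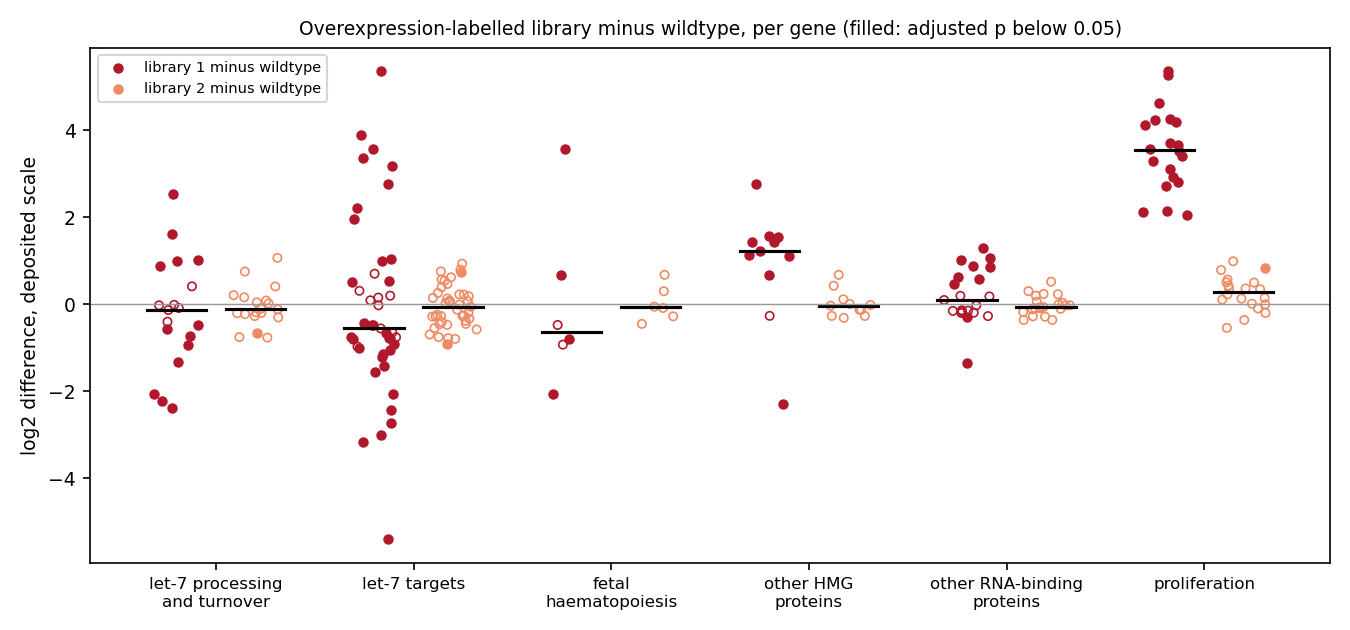
Difference in deposited log2 values of each tested list gene (points) in overexpression-labelled library 1 (left of each pair) and library 2 (right) against wildtype, with black bars at the median; filled points have an adjusted p below 0.05. In library 1 the let-7 targets spread from -5.41 to 5.36, and the proliferation genes lie between 2.05 and 5.36.

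Other genes tied to the fetal stage of blood formation, as its marks or its repressors, were mostly too low to test. Of 19 genes with a row, 6 were tested. In overexpression-labelled library 1, 2 of these were higher, Cbx2 and Bcl11a, and 2 lower, Plagl1 and Arid3a, of which Cbx2, Plagl1 and Arid3a also count among the let-7 targets, with a median difference of -0.64; in library 2 none of the 6 passed. That is 33.3% in each direction, beside 26.8% and 34.4% of all genes, and the lower calls were 1 with totals without Rn45s and 0 without a filter. Plagl1, an imprinted zinc finger gene, had 0 and 27 reads in overexpression-labelled libraries 1 and 2, against 53 and 18 reads in wildtype libraries 1 and 2. With a floor of 3 reads in library 1, its normalised level there was 11.0-fold lower than the wildtype mean. That value leaves out the counting error of the wildtype reads. Arid3a, a factor of fetal B lymphopoiesis in mouse whose mRNA Igf2bp3 binds, had 149 and 236 reads, against 366 and 214 reads in wildtype, and fell by 0.81 in library 1 (limma-trend adjusted p = 0.0166). Bcl11a, a repressor of fetal globin and so no mark of the fetal stage, was higher by 0.68 in library 1 (limma-trend adjusted p = 0.00897) and differed by 0.68 in library 2 (limma-trend adjusted p = 0.123).

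Genes listed for adult B lymphopoiesis were largely lower in overexpression-labelled library 1. The 9 tested had a median difference of -2.94, beside -0.15 over all genes, and spread from -6.96 to 5.51. The pro-B and pre-B markers summed higher there, to 3657 CPM against 8.74 and 3.66 CPM in wildtype libraries 1 and 2. The list is thus no readout of B progenitor genes as a whole. Il7r, the receptor chain that adult B progenitors depend on, was higher by 5.51, and Fcer2a, the receptor of mature B cells for IgE, fell by 6.96. Dntt, which adds bases to antigen receptor junctions and is low in fetal progenitors in mouse, had 4 and 22 reads in overexpression-labelled libraries 1 and 2, against 23 and 10 reads in wildtype libraries 1 and 2. In library 2 the median difference was 0.23, with a spread from -1.12 to 1.02. Cr2 is named because it passed there, at 558 CPM against 247 and 310 CPM in wildtype libraries 1 and 2. That call was lost without a filter on low reads and with 10 reads required in 1 library.

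Genes of other high mobility group proteins were mostly higher in overexpression-labelled library 1. The 11 tested genes for HMG box and nucleosome-binding proteins had a median difference of 1.22 there, beside -0.15 over all genes. They spread from -2.30 to 2.78, and in library 2 their median difference was -0.03. Hmgn5, a nucleosome-binding protein, was higher by 2.78, with 2560 and 342 reads in overexpression-labelled libraries 1 and 2, against 413 and 299 reads in wildtype libraries 1 and 2. Hmgb3, Hmgb1 and Hmgn3 were higher by 1.55, 1.44 and 1.58. Tox, an HMG box factor of T cells, fell by 2.30, and the T and NK cell markers summed to 1.31 and 25.0 CPM in overexpression-labelled libraries 1 and 2, against 54.3 and 50.6 CPM in wildtype libraries 1 and 2; 4 of the 7 markers were at 0 reads in library 1. Their part in the value of Tox was not tested.

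The 21 tested genes for other RNA-binding regulators of translation and stability had a median difference of 0.10 in overexpression-labelled library 1. That stands beside -0.15 over all genes, and the genes spread from -1.35 to 1.30. In library 2 their median difference was -0.07. Ybx3, a cold shock domain protein, Msi2, a stem cell regulator of translation, and Ptbp1, a splicing repressor, were higher by 1.30, 1.06 and 1.02. Ptbp2, its paralog, fell by 1.35. Ptbp1 and Ptbp2 thus changed in opposite directions in the library in which Igf2bp2 and Igf2bp3 did. Differences in both directions were common over all genes there.

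Proliferation genes moved with these results, and Rrm2 counts both among them and among the let-7 targets. All 20 tested were higher in overexpression-labelled library 1, with a median difference of 3.55, and 1 was higher in library 2, Mki67, a call lost under 5 of 10 alternatives. They summed to 5481 and 592 CPM in overexpression-labelled libraries 1 and 2, against 478 and 507 CPM in wildtype libraries 1 and 2. Their part in the values of Igf2bp2, Igf2bp3 and the HMG proteins was not tested.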

How the data were processed

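RNA was measured in 4 libraries of B220-positive marrow B cells, grouped by genotype label; the misspelled genotype of wildtype library 2 was read as wildtype, and 1 digit of the header for overexpression-labelled library 1 is not that of its title. The authors' tools were STAR, HTSeq and DESeq2 on mm10, per the submitters' processing notes; versions, settings, strand and annotation are not given in the sources used here. The authors deposited log2 values that share a floor of 4.949, read here as 0 reads. They follow the formula of a variance stabilizing transformation, and inverting it gave whole reads within 0.01 for 100% of the values. CPM uses the total of these reads, of which the ribosomal RNA precursor Rn45s took 25.7% to 30.5%. A gene was tested when 2 or more libraries held 10 reads or more after scaling to the median library, and the 4 together 15 or more; 12617 genes were.

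The design planned a count test only for deposited counts. Since the values are log2, these were tested with limma-trend (version 3.58.1 under R 4.3.3), without a pseudocount, two-sided, with Benjamini-Hochberg adjustment over all genes tested and a threshold of 0.05. A library set alone against the wildtype pair is assumed to vary as that pair does. The fit was tested on simulated data. Counting intervals are exact Poisson or conditional binomial at 95%. Positions, exons and 3′ untranslated regions come from GENCODE on GRCm38, the build mm10 stands for. Named genes are the 7 genes, Arid5b, up to 5 tested genes per list with the largest difference in overexpression-labelled library 1, and list genes with reads in 1 library only. The 7 genes, the lists and the tests were chosen with earlier results of these data known. Alternatives were other size factors and totals, log2 of normalised reads plus 0.5, limma-voom, other filters and leaving out each library. Some items are not reported here.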

Additional observations from a re-analysis of the deposited data

How the results depend on the processing

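No recomputed difference of Igf2bp2, Igf2bp3 or the called genes named from the lists by rule changed sign. The signs of other genes were not compared. In library 1 the balance of calls over all genes turned with totals without Rn45s, as given above. Leaving out the filter on low reads raised the number of genes tested to 17905 from 12617. It lowered the number called over all genes in library 1. A lower count in a list under that setting, given next, is thus no feature of that list alone. Without a filter on low reads, 2642 genes were called in overexpression-labelled library 1, and Igf2bp2 and Igf2bp3 kept their differences of 1.85 and -1.04 but no longer passed (adjusted p = 0.0571 for each); higher and lower calls there became 5 and 4 for let-7 targets, 1 and 5 for let-7 processing, 5 and 0 for HMG proteins, 1 and 1 for RNA-binding regulators, 5 and 2 for IGF signalling and 0 and 5 for B-1 genes, and fetal genes lower and adult B genes higher became 0 each. With 10 reads required in 1 library, 11 let-7 targets were lower. Under 3 other scalings (size factors recomputed, library totals, totals without Rn45s) 1 RNA-binding regulator in place of 2 was lower and 2 B-1 genes in place of 1 were higher, and under the last of these 1 fetal gene was lower in place of 2. In library 2 the count of called genes was 70 with size factors recomputed, 58 with library totals without Rn45s, 56 with log2 of normalised reads plus 0.5, 614 with limma-voom, 0 without a filter and 0 with 10 reads required in 1 library; the cause was not tested. The calls of Dusp1 and Mki67 there were lost under 5 of 10 alternatives each, of Ago2 under 3 and of Cpm under 2. Scaling by totals without Rn45s moved the median difference of all genes in library 1 to 0.02 from -0.15, with Igf2bp2 at 1.98 and Igf2bp3 at -0.87. The value of Igf2bp2 stays a description, since it entered the test only through the overexpression-labelled libraries. With 5 CPM required in 2 libraries, Igf2bp2 was not tested. Leaving out each library in turn, the comparison of both groups called 0 to 7721 genes: 7721 without overexpression-labelled library 2, 209 without overexpression-labelled library 1, 0 without wildtype library 1 and 1 without wildtype library 2. Igf2bp2 then ranged from 0.349 to 1.848 and Igf2bp3 from -1.044 to -0.321. No paired analysis was possible because the labels give no replicate numbers; the numbers of libraries used here follow accession order and pair nothing. Low counts limit Lin28a, Lin28b, Igf2bp1, Hmga1 and Hmga2, which had at most 14 reads in any library. For Hmga1 the unknown treatment of reads that match more than 1 place is a further limit.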

Other observations

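Genes of B-1 cells, the B cell lineage that fetal progenitors favour in mouse, were mostly lower in overexpression-labelled library 1. The 13 tested had a median difference of -1.46 there, beside -0.15 over all genes, and spread from -5.96 to 0.967. In library 2 their median difference was -0.03. Bhlhe41, a transcription factor that B-1a cells need, fell by 5.46 in library 1, with 26 and 2407 reads in overexpression-labelled libraries 1 and 2, against 2834 and 1576 reads in wildtype libraries 1 and 2. Zbtb32 and Cd5 are not among the genes with the largest differences in this list, and Cd5 was chosen after its values were seen. Zbtb32, a zinc finger repressor, fell by 2.11. Cd5, the surface marker of B-1a cells, fell by 1.46, with 28 and 130 reads, against 146 and 91 reads in wildtype. Spn and Plscr1 went the other way in overexpression-labelled library 1, higher by 0.967 and 0.729. Both were also chosen after their values were seen.

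Genes of IGF and insulin signalling, the pathway that gave the IGF2BP family its name, were called about as often as all genes in overexpression-labelled library 1: of 13 tested, 3 were higher and 4 lower, 23.1% and 30.8% beside 26.8% and 34.4% of all genes, and in library 2 none passed. Without a filter on low reads 5 were higher and 2 lower in library 1. The adaptor gene Irs2 fell by 3.17 and the receptor gene Igf1r by 2.74, with 7 and 213 reads of Igf1r in overexpression-labelled libraries 1 and 2, against 182 and 131 reads in wildtype libraries 1 and 2. The kinase genes Akt1 and Mtor were higher by 2.07 and 2.02. Igfbp4, a secreted IGF binding protein, differed by 1.14 and did not pass (limma-trend adjusted p = 0.0514). Among genes with reads in 1 library only, Dlk1 had 7 and Igfbp3 had 10 reads in overexpression-labelled library 2, where the 14 reads of Lin28a also were, Igfbp5 had 5 in overexpression-labelled library 1, and Trim71, itself a let-7 target and a partner of LIN28, had 3 in wildtype library 1.

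Hmga2-ps1 fell by 1.53 in overexpression-labelled library 1 (limma-trend adjusted p = 0.000555) and differed by 0.36 in library 2 (limma-trend adjusted p = 0.518).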
